A study of Mus musculus with 12 samples.

Results

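The mRNAs of lipid droplets and triglyceride storage were followed in 4T1 cells, in RNA taken from sub-polysomal and polysomal gradient fractions. Members were taken by gene symbol, as the count table writes it, and all 10 symbols were found among its 55376 genes. They are Plin2, Plin3, Dgat1, Dgat2, Pnpla2, Abhd5, Hilpda, Acsl3, Scd1 and Scd2, and all 10 were among the 12224 genes with at least 1 CPM (CPM, counts scaled to library size) in at least 3 libraries. 4T1 is a mouse mammary gland cancer line. The cells had been stably transfected either with the empty vector (mock) or with full-length Mettl7a1 cDNA in the pBICEP-CMV-2 vector (METTL7A1), and both lines were grown under G418 selection. Whether a line was 1 clone or a pool of clones is not given in the sources used here. Cells were treated with cycloheximide at 0.1 mg/ml during 5 min, which holds ribosomes on mRNA, before their cytoplasmic extracts were run on sucrose gradients. The sub-polysomal pool was made of fractions 3 to 7, with free ribosomal subunits and monosomes, and the polysomal pool of fractions 8 to 11. There were 12 libraries in 4 groups, with 3 replicates per group, namely A, B and C for mock and D, E and F for METTL7A1 cells in either pool.

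Lipid droplets are stores of neutral lipid, mainly triglycerides and sterol esters, that bud from the endoplasmic reticulum and carry a coat of proteins. Acyl-CoA synthetases activate fatty acids and stearoyl-CoA desaturases introduce a double bond into them. Diacylglycerol acyltransferases join the last fatty acid to make a triglyceride, perilipins cover the droplet surface, and lipases with their activators and inhibitors set how fast the store is broken down. Proteins of the METTL7 family are known at the endoplasmic reticulum and on lipid droplets, which is the reason for reading these mRNAs together. In the members, Plin2 and Plin3 encode perilipins of the droplet coat, and Dgat1 and Dgat2 encode the acyltransferases of the last step. Acsl3 encodes the acyl-CoA synthetase found on nascent droplets, and Scd1 and Scd2 encode desaturases. Pnpla2 encodes the triglyceride lipase ATGL, Abhd5 its coactivator, and Hilpda an inhibitor of that lipase whose gene responds to hypoxia.

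Library totals lay between 1817520 and 6966156 counts, and the smallest count of any member in any library was 27, in comparison with 10337 for the largest. In these libraries 3 counts equalled 0.431 to 1.65 CPM. Mettl7a1 itself, endogenous and transfected together, was counted 4 to 24 times per mock library and 989 to 2436 times per METTL7A1 library, with no overlap between genotypes. Of 8 epithelial markers, 7 were tested and Krt5 was at 0 in all libraries, with the summed level of the list at 2704 to 2826 CPM in mock sub-polysomal, 3471 to 4166 CPM in mock polysomal, 2841 to 3109 CPM in METTL7A1 sub-polysomal and 5241 to 6140 CPM in METTL7A1 polysomal RNA. Adipocyte markers were at or near 0: their summed level lay between 0 and 0.819 CPM, 0 of 8 were tested, and Lep, Cidec and Cfd had no count. Of 8 leukocyte, endothelial and fibroblast markers 2 were tested, Adgre1 and Cd3e were at 0, and the summed level was 9.48 to 13.5 CPM in mock sub-polysomal, 10.3 to 11.5 CPM in mock polysomal, 12.9 to 20.6 CPM in METTL7A1 sub-polysomal and 17.9 to 27.0 CPM in METTL7A1 polysomal RNA. These are bulk libraries, in which fewer cells of a kind and less RNA per cell cannot be told apart. Mock and METTL7A1 replicates shared no letter. Each genotype is described as a stable line, so that differences between the lines other than METTL7A1 cannot be told apart from it. The p-values measure the spread between these samples and not between independently transfected lines.

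The members covered a wide range of levels. Per kilobase of exon, Scd2 was the most abundant, with a mean of 143 CPM per kb over the 12 libraries, and lay above 94.7% of the tested genes. Plin2 followed with 65.9 and Hilpda with 57.3 CPM per kb. The remaining members lay much lower and close to each other, at 14.8 CPM per kb for Dgat1, 13.0 for Scd1, 11.9 for Abhd5, 11.6 for Pnpla2, 10.4 for Acsl3, 7.90 for Plin3 and 6.23 for Dgat2. Neighbours in this lower range were often not separated by their spread, and some changed places from group to group. In mock sub-polysomal RNA, for example, Dgat1 was at 8.31 ± 0.22 CPM per kb (SD, n = 3) and Scd1 at 11.5 ± 2.23 CPM per kb, while in METTL7A1 sub-polysomal RNA Dgat1 was at 19.9 ± 3.96 and Scd1 at 15.5 ± 1.15 CPM per kb. Hilpda was above Plin2 in both sub-polysomal groups, by less than the SD of Hilpda in mock cells, with Plin2 and Hilpda at 43.7 ± 3.78 against 47.8 ± 5.53 CPM per kb in mock and 73.0 ± 3.21 against 91.9 ± 12.8 CPM per kb in METTL7A1 cells. Together the 10 members took 0.125% to 0.146% of the counts in mock polysomal and 0.186% to 0.221% in METTL7A1 polysomal libraries, and 0.0643% to 0.0878% in mock sub-polysomal and 0.0842% to 0.0981% in METTL7A1 sub-polysomal libraries. Most of these counts were of Scd2.

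**Figure D1:**
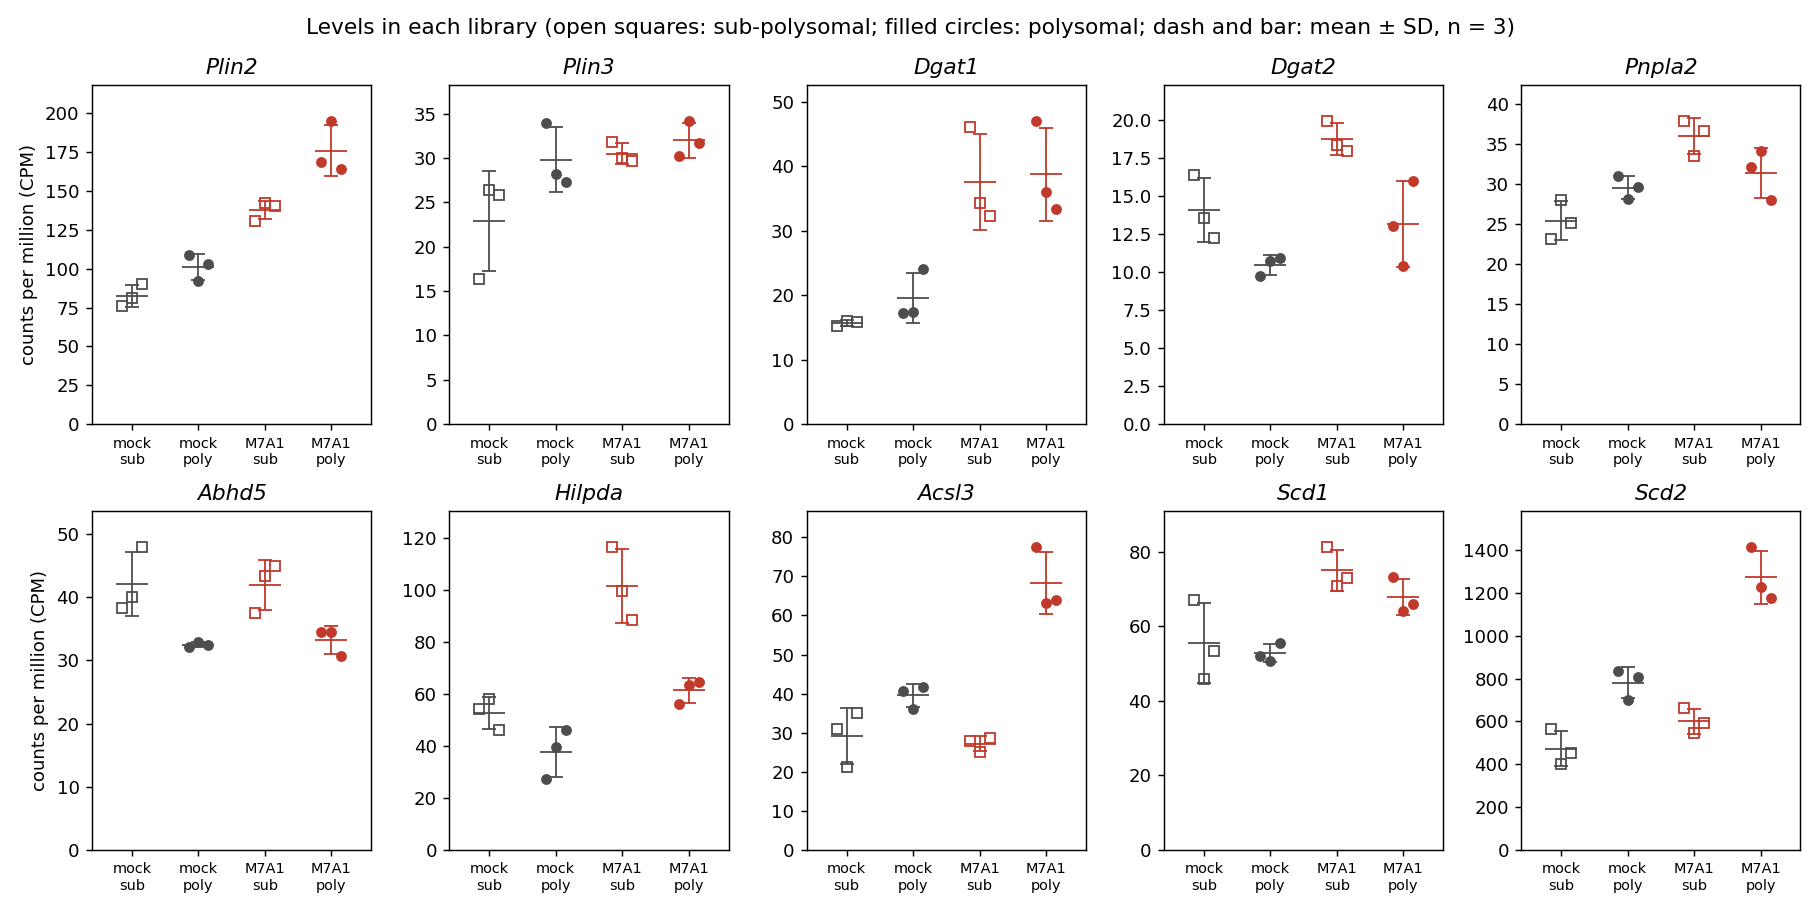
Level of each of the 10 mRNAs in CPM (vertical axis, starting at 0, with its own scale in each panel) in mock (grey) and METTL7A1 cells (red, M7A1). Squares are sub-polysomal and circles polysomal libraries, and the dash with its bar is the mean ± SD of 3 replicates. The red symbols of Plin2 and Dgat1 lie above all grey ones in either pool, while in the panel of Acsl3 the red circles lie above the other 3 groups and the red squares do not.

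The first comparison asked how the level of each mRNA differed between METTL7A1 and mock cells in each pool. In polysomal RNA 5 of the 10 members rose and 0 fell: Plin2, Dgat1, Hilpda, Acsl3 and Scd2 (adjusted p below 0.05, edgeR's quasi-likelihood test with Benjamini-Hochberg adjustment over all tested genes). In the same comparison 9.69% of the 12224 tested genes rose and 8.28% fell. In sub-polysomal RNA 5 members rose and 0 fell, which were Plin2, Dgat1, Hilpda, Pnpla2 and Scd1, where 16.8% of all tested genes rose and 14.5% fell. Plin2, Dgat1 and Hilpda rose in both pools, as did 6.15% of all tested genes. The median log2 change of the members was 0.53 in polysomal RNA, against -0.014 over all tested genes, and 0.45 in sub-polysomal RNA, against -0.0015 over all tested genes. In polysomal RNA all 10 log2 changes were above 0, as were 48.7% of those of all tested genes, and in sub-polysomal RNA 8 were, against 49.9%. At the limits that the study states for total RNA, an adjusted p below 0.01 with a log2 change beyond 1.5, 0 members were called in either pool by edgeR, against 2.13% of the tested genes in polysomal and 2.76% in sub-polysomal RNA. At an unadjusted p below 0.05 there were 6 members in the polysomal and 8 in the sub-polysomal pool, against 31.2% and 42.3% of all tested genes.

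Plin2 encodes the perilipin that coats droplets in most cells (gene at chr4:86648386-86670060, minus strand, GRCm38). In sub-polysomal RNA its level was 76.2, 80.9 and 90.2 CPM in mock replicates A, B and C, and 131, 142 and 140 CPM in METTL7A1 replicates D, E and F. In polysomal RNA it was 109, 92.1 and 103 CPM in mock and 168, 195 and 164 CPM in METTL7A1 cells. The lowest METTL7A1 library of either pool thus lay above all 6 mock libraries. The log2 change was 0.80 in polysomal (standard error 0.13, adjusted p = 0.000251) and 0.74 in sub-polysomal RNA (standard error 0.13, adjusted p = 0.000466, both from edgeR's quasi-likelihood test), a fold of 1.74 and 1.66. Both rises passed the threshold in each of the 14 refits with other tools, scaling, filters or replicates, with log2 changes of 0.72 to 0.87 and of 0.67 to 0.81.

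Dgat1 encodes one of both enzymes that complete the triglyceride (chr15:76502015-76511953, minus strand). It had the largest log2 change of the members in either pool. Its sub-polysomal level was 15.2, 16.1 and 15.8 CPM in mock and 46.1, 34.2 and 32.3 CPM in METTL7A1 cells, and its polysomal level was 17.2, 17.5 and 24.1 CPM in mock and 47.0, 36.0 and 33.4 CPM in METTL7A1 cells. The groups did not overlap in either pool, and replicate D was the highest METTL7A1 library in both. The log2 change was 0.98 in polysomal (standard error 0.17, adjusted p = 0.00055) and 1.24 in sub-polysomal RNA (standard error 0.20, adjusted p = 0.000186, edgeR's quasi-likelihood test). These correspond to 1.98-fold and 2.36-fold higher levels. Both calls held in all 14 refits, with log2 changes of 0.82 to 1.16 and of 0.87 to 1.34.

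Hilpda encodes the small droplet protein that inhibits ATGL (chr6:29272488-29275446, plus strand). In sub-polysomal RNA its level was 54.2, 57.9 and 46.0 CPM in mock and 116, 99.5 and 88.2 CPM in METTL7A1 cells. In polysomal RNA it was 27.0, 39.4 and 46.0 CPM in mock and 55.9, 63.4 and 64.5 CPM in METTL7A1 cells. Groups of the same pool did not overlap, but the METTL7A1 polysomal libraries overlapped the range of the mock sub-polysomal ones. The log2 change was 0.71 in polysomal (standard error 0.17, adjusted p = 0.00788) and 0.95 in sub-polysomal RNA (standard error 0.18, adjusted p = 0.000646, edgeR's quasi-likelihood test). Without METTL7A1 replicate E the polysomal change was 0.68 with an adjusted p of 0.056 in edgeR's test, past the threshold no longer.

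**Figure D2:**
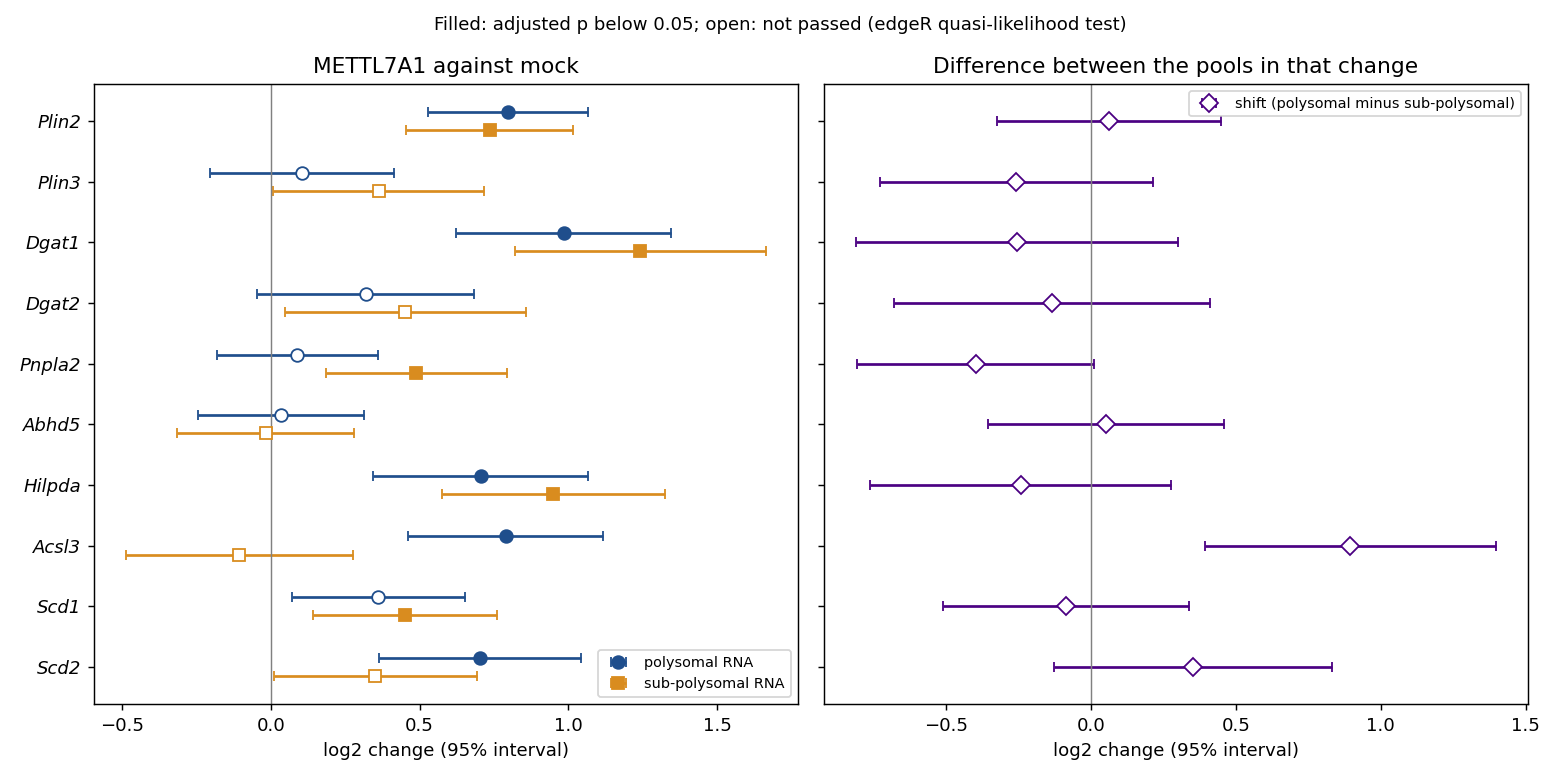
Log2 change of each mRNA between METTL7A1 and mock cells (left: circles, polysomal; squares, sub-polysomal RNA) and the difference between both changes (right, the shift to polysomes), with 95% confidence intervals on the horizontal axis. Filled symbols passed an adjusted p of 0.05. Plin2, Dgat1 and Hilpda are filled in both pools, Acsl3 and Scd2 in polysomal RNA and Pnpla2 and Scd1 in sub-polysomal RNA, while no symbol of the shift is filled.

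Acsl3 encodes the synthetase that activates fatty acids at the site of droplet formation (chr1:78657825-78707743, plus strand). In sub-polysomal RNA its level was 31.0, 21.1 and 35.1 CPM in mock and 27.9, 25.1 and 28.7 CPM in METTL7A1 cells. In polysomal RNA it was 40.7, 36.1 and 41.7 CPM in mock and 77.5, 63.3 and 64.0 CPM in METTL7A1 cells. The sub-polysomal groups thus overlapped in full, with the METTL7A1 libraries inside the mock range, while the polysomal groups were apart. The log2 change in polysomal RNA was 0.79 (standard error 0.16, adjusted p = 0.00168, edgeR's quasi-likelihood test), or 1.73-fold, and passed in all 14 refits. In sub-polysomal RNA it was -0.11 (standard error 0.18, 95% confidence interval -0.49 to 0.28, adjusted p = 0.695, edgeR's test). Acsl3 shares 244 exon bases with Utp14b on the same strand, whose level was 3.28 to 5.75 CPM in the group means.

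Both desaturase mRNAs passed the test in 1 pool each. Scd2 (chr19:44293674-44306864, plus strand) had levels of 563, 400.3 and 454 CPM in mock and 664, 548 and 593 CPM in METTL7A1 sub-polysomal libraries, where the highest mock library exceeded the lowest METTL7A1 library. In polysomal RNA it was at 837, 701 and 809 CPM in mock and at 1416, 1228 and 1177 CPM in METTL7A1 cells, with no overlap. Its log2 change was 0.70 in polysomal (standard error 0.16, adjusted p = 0.0052) and 0.35 in sub-polysomal RNA (standard error 0.16, adjusted p = 0.108, edgeR's quasi-likelihood test). Without mock replicate A, the shallowest library in its pool, the sub-polysomal value was 0.47 with an adjusted p of 0.0174, and with GC offsets, which take out the trend of each library with GC content and are an alternative added after the data were seen, it was 0.48 with an adjusted p of 0.0222 (edgeR's test).

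Scd1 (chr19:44394455-44407879, minus strand) was the less abundant of the desaturases. Its levels were 67.2, 46.0 and 53.3 CPM in mock and 81.2, 70.7 and 72.9 CPM in METTL7A1 sub-polysomal libraries, and 52.0, 50.7 and 55.5 CPM in mock and 73.3, 64.1 and 66.0 CPM in METTL7A1 polysomal libraries. The groups did not overlap in either pool. The log2 change was 0.45 in sub-polysomal RNA (standard error 0.15, adjusted p = 0.0264) and 0.36 in polysomal RNA (standard error 0.14, adjusted p = 0.079, edgeR's quasi-likelihood test). The sub-polysomal call was lost when any replicate but mock A was left out, since its adjusted p in edgeR's test was 0.132 without mock replicate B, 0.0891 without C, 0.103 without METTL7A1 replicate D, 0.0659 without E and 0.0577 without F. It was also lost when only the groups compared were fitted (adjusted p = 0.0643), while with GC offsets it was 0.68 (adjusted p = 0.000851, edgeR's test). The polysomal change passed in 2 refits, without mock replicate A (adjusted p = 0.0493) and with GC offsets (0.42, adjusted p = 0.0168, edgeR's test).

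The desaturase genes are close copies in their coding part, which bears on how reads were assigned to them. Scd1 and Scd2 transcripts shared 145 runs of 50 bases, 3.00% of those of Scd1 and 2.68% of those of Scd2. The longest shared run, 147 bases, lies within the coding sequence of both, at positions 823 to 969 of the Scd1 and 1246 to 1392 of the Scd2 transcript. It is shown in the sense of the transcripts as the longest of the stretches where a read could not be told to come from either gene.
Scd1 and Scd2: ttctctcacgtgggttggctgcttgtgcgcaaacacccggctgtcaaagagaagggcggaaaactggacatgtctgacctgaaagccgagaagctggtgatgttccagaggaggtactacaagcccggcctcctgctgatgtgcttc
If reads from this stretch were counted for either gene, they would weigh more on the level of Scd1, the less abundant of both. How such reads were handled is not given, and the values of both genes are uncertain to that extent. Scd1 shared 167 runs of 50 bases with Scd3 and 84 with Scd4, and Scd2 shared 136 and 61. The mean level of Scd3 was 3.03 CPM. Plin2 and Plin3 shared 0 runs of 50 bases.

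Of the genes of lipolysis, Pnpla2 (chr7:141455198-141460743, plus strand) rose in sub-polysomal RNA. Its level there was 23.1, 28.0 and 25.1 CPM in mock and 37.8, 33.5 and 36.6 CPM in METTL7A1 cells, with no overlap, and in polysomal RNA it was 31.0, 28.0 and 29.5 CPM in mock and 32.1, 34.0 and 28.0 CPM in METTL7A1 cells, with overlap. The log2 change was 0.49 in sub-polysomal (standard error 0.15, adjusted p = 0.0156) and 0.09 in polysomal RNA (standard error 0.13, 95% confidence interval -0.18 to 0.36, adjusted p = 0.686, edgeR's quasi-likelihood test). With GC offsets the sub-polysomal value was 0.10 with an adjusted p of 0.638, and it also missed the threshold without mock replicate C (0.47, adjusted p = 0.0682) and without METTL7A1 replicate D (0.45, adjusted p = 0.0631, all in edgeR's test). Pnpla2 had the highest transcript GC content of the members, 57.0%, against a median of 50.2% over 12156 tested genes, and across these genes the sub-polysomal log2 change had a Spearman correlation of 0.40 with GC content. Abhd5 (chr9:122351608-122381524, plus strand), the coactivator, had levels between 30.7 and 48.0 CPM in all 12 libraries. Its exons overlap 950 bases of the antisense gene A730085K08Rik, which had 0 to 3 counts. The log2 change of Abhd5 was 0.03 in polysomal (95% confidence interval -0.24 to 0.31) and -0.02 in sub-polysomal RNA (95% confidence interval -0.31 to 0.28), and in both pools the genotypes overlapped.

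The remaining members did not pass the test in either pool. Plin3 (chr17:56277476-56292873, minus strand), the perilipin that moves between cytosol and droplets, had a log2 change of 0.10 in polysomal (95% confidence interval -0.20 to 0.41) and 0.36 in sub-polysomal RNA (0.01 to 0.72, adjusted p = 0.11, edgeR's quasi-likelihood test). Its sub-polysomal levels were 16.4, 26.4 and 25.9 CPM in mock and 31.8, 30.0 and 29.6 CPM in METTL7A1 cells, so that the groups were apart and mock replicate A lay far below B and C. Dgat2 (chr7:99153658-99182719, minus strand), the other acyltransferase, had levels of 16.4, 13.5 and 12.2 CPM in mock and 19.9, 18.4 and 17.9 CPM in METTL7A1 sub-polysomal libraries. Its log2 change there was 0.45 (95% confidence interval 0.05 to 0.86, adjusted p = 0.0822) and in polysomal RNA 0.32 (-0.04 to 0.68, adjusted p = 0.223, edgeR's test). In sub-polysomal RNA the intervals of Dgat2 and Plin3, which are not adjusted over all genes, lay above 0. Over the 14 refits the sub-polysomal value was 0.11 to 0.52 for Dgat2 and 0.20 to 0.45 for Plin3, and 0 refits passed the threshold for either.

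The second comparison asked how each mRNA was divided between the pools in either genotype. Values are log2 ratios of polysomal over sub-polysomal level after TMM scaling over all libraries, and they are relative to the bulk of mRNAs. With TMM factors computed within each pool, the median of all genes moved by 0.42 in mock and 0.43 in METTL7A1 cells, and the values of the members moved with it, so that their distance from the median of all genes changed by 0.0042 at most. In mock cells 2 members were higher and 2 lower in polysomal RNA (adjusted p below 0.05, edgeR's quasi-likelihood test), where 23.3% of all tested genes were higher and 23.7% lower. In METTL7A1 cells 3 were higher and 3 lower, where 30.0% of all tested genes were higher and 29.3% lower. With factors within each pool the split was 7 higher and 0 lower in mock cells (48.0% and 14.3% of all genes) and 5 higher and 0 lower in METTL7A1 cells (48.8% and 19.3% of all genes). At the study's limits 0 members were called in either genotype by edgeR, against 7.55% and 12.1% of the tested genes, and at an unadjusted p below 0.05 there were 5 and 6, against 54.1% and 63.3%.

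Scd2 and Acsl3 lay on the polysomal side. The log2 ratio of Scd2 was 0.57, 0.81 and 0.83 in mock replicates A to C and 1.09, 1.16 and 0.99 in METTL7A1 replicates D to F, and the fitted value was 0.73 (standard error 0.16, adjusted p = 0.00127) and 1.08 (standard error 0.16, adjusted p = 1.85e-05, edgeR's quasi-likelihood test). Acsl3 had log2 ratios of 0.39, 0.77 and 0.24 in mock and 1.46, 1.32 and 1.15 in METTL7A1 cells. Its fitted value was 1.33 in METTL7A1 cells (standard error 0.17, adjusted p = 2.6e-06), a 2.51-fold higher level in polysomal RNA, and 0.43 in mock cells (standard error 0.17, adjusted p = 0.0448, edgeR's test). The mock value of Acsl3 was close to the threshold, with an adjusted p of 0.0753 in DESeq2, and in edgeR's test of 0.0657 with GC offsets, 0.0662 with RLE factors, 0.0548 with at least 10 counts in every library, 0.0876 with only the groups compared and 0.138 without mock replicate A, 0.202 without B, 0.052 without METTL7A1 replicate D, 0.0679 without E and 0.0583 without F in edgeR's test. Plin2 was higher in the polysomal pool of METTL7A1 cells, with log2 ratios of 0.36, 0.45 and 0.23 (fitted value 0.35, standard error 0.13, adjusted p = 0.0246, edgeR's test). That call was lost with no filter (adjusted p = 0.0628) and without METTL7A1 replicate D (adjusted p = 0.092), E (0.172) or F (0.0531, edgeR's test). In mock cells the fitted value of Plin2 was 0.29 (standard error 0.13, adjusted p = 0.0784), and 0.71 with factors within each pool (adjusted p = 0.000159, edgeR's test).

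Hilpda, Abhd5 and Dgat2 lay on the sub-polysomal side of the median mRNA. The log2 ratio of Hilpda was -0.99, -0.55 and 0.0014 in mock and -1.05, -0.65 and -0.45 in METTL7A1 cells, with fitted values of -0.48 (standard error 0.18, adjusted p = 0.0353) and -0.72 (standard error 0.17, adjusted p = 0.00135, edgeR's quasi-likelihood test). Mock replicate C alone was near 0. The mock call was lost without replicate A (adjusted p = 0.138), B (0.144) or METTL7A1 replicate E (0.0612), with no filter (0.0505) and with only the groups compared (0.0703, edgeR's test), and with factors within each pool the values were -0.06 and -0.29, neither past the threshold. For Abhd5 the fitted value was -0.39 in mock (adjusted p = 0.027) and -0.34 in METTL7A1 cells (adjusted p = 0.0406, edgeR's test), and it turned to 0.03 and 0.10 with TMM factors within each pool. The calls of Abhd5 were also lost without single replicates, in mock cells without B (adjusted p = 0.0575), C (0.237) or E (0.0508) and in METTL7A1 cells without B (0.0503), E (0.145) or F (0.28, edgeR's test). They were lost with no filter as well, with an adjusted p of 0.155 in mock and 0.172 in METTL7A1 cells, and in mock cells with only the groups compared (0.0682, edgeR's test). Dgat2 had a fitted value of -0.52 in METTL7A1 cells (standard error 0.18, adjusted p = 0.0171) and -0.38 in mock cells (adjusted p = 0.108, edgeR's test), which were -0.08 and 0.04 with factors within each pool. Without METTL7A1 replicate D or E the adjusted p of Dgat2 was 0.0965 and 0.157, and with GC offsets its value was -0.19 with an adjusted p of 0.378 (edgeR's test). Set against the median of all genes, Abhd5 was at -0.44 in mock and -0.40 in METTL7A1 cells with either scaling, and Dgat2 at -0.44 and between -0.58 and -0.57.

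The other 4 members did not pass in either genotype. Plin3 had a fitted log2 ratio of 0.33 in mock (standard error 0.16) and 0.07 in METTL7A1 cells (standard error 0.16), and the ratios of the mock letters were 1.04, 0.09 and 0.08, with A far above the others. Dgat1 was at 0.32 (standard error 0.20) and 0.06 (standard error 0.17), and Pnpla2 at 0.21 (standard error 0.14) and -0.19 (standard error 0.13). Scd1 was at -0.05 (standard error 0.15) and -0.14 (standard error 0.14). With TMM factors within each pool these members passed on the polysomal side, in both genotypes for Plin3 (0.76 and 0.51) and Dgat1 (0.74 and 0.50) and in mock cells for Pnpla2 (0.63) and Scd1 (0.37), which were at 0.24 and 0.29 in METTL7A1 cells. With GC offsets Dgat1 passed as higher (0.42, adjusted p = 0.0256) and Scd1 as lower (-0.37, adjusted p = 0.0136, edgeR's test) in METTL7A1 cells.

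**Figure D3:**
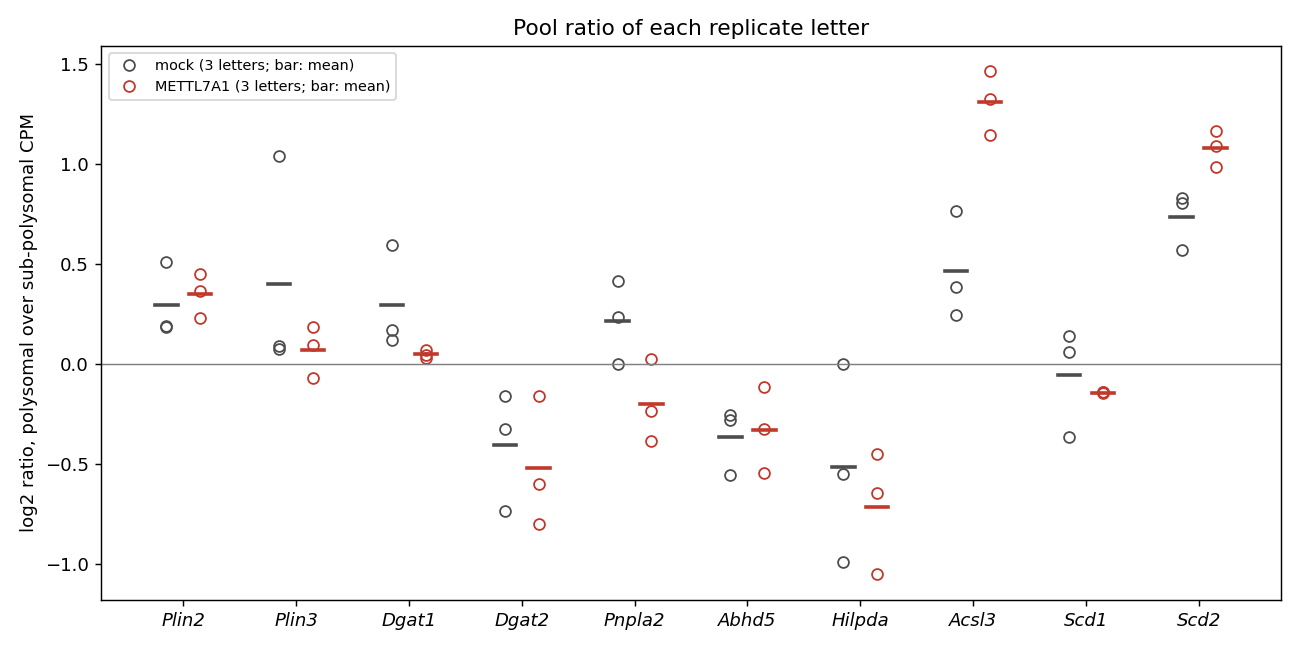
Log2 ratio of polysomal over sub-polysomal CPM (vertical axis) for each replicate letter in mock (grey) and METTL7A1 cells (red), with bars at the means of 3 letters. Acsl3 and Scd2 show red points above all grey points, Dgat1 shows red points below all grey ones, and the other 7 members overlap.

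The third comparison, the shift to polysomes, asked whether that distribution differed between genotypes. It is the log2 ratio in METTL7A1 cells minus that in mock cells, tested as an interaction term. With edgeR 0 of the 12224 genes passed (0%), with a smallest adjusted p of 0.0939, and 0 of the 10 members did. At an unadjusted p below 0.05 there was 1 member, Acsl3, against 15.6% of all tested genes. The shift of Acsl3 was 0.89 (95% confidence interval 0.39 to 1.40, standard error 0.24, adjusted p = 0.129 by edgeR's quasi-likelihood test), and DESeq2 gave 0.89 with an adjusted p of 0.0266, past the threshold, as 1.17% of all tested genes were in the higher and 1.52% in the lower direction. In every refit the value was between 0.69 with GC offsets and 1.03 without mock replicate B. The ratios of the letters did not overlap between genotypes in 3 members, higher in METTL7A1 cells for Acsl3 and Scd2 and lower for Dgat1, and 22.8% of all tested genes did not overlap either way.

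The 95% confidence intervals of the other 9 shifts held 0. Pnpla2 had a shift of -0.40 (95% confidence interval -0.81 to 0.01) and Scd2 one of 0.35 (-0.13 to 0.83). Plin2 had a shift of 0.06 (-0.32 to 0.45), and Abhd5 one of 0.05 (-0.36 to 0.46). Dgat1 was at -0.26 (-0.81 to 0.30), Plin3 at -0.26 (-0.73 to 0.21), Hilpda at -0.24 (-0.76 to 0.28), Dgat2 at -0.13 (-0.68 to 0.41) and Scd1 at -0.09 (-0.51 to 0.34). Over the tested genes the shift had a Spearman correlation of -0.42 with transcript GC content. The GC content of the members was 43.2% in Acsl3, 45.7% in Abhd5, 47.1% in Scd1, 49.5% in Scd2, 51.1% in Plin3 and Hilpda, 52.1% in Plin2, 56.3% in Dgat2, 56.5% in Dgat1 and 57.0% in Pnpla2. With GC offsets the shift was 0.69 for Acsl3 (standard error 0.22), down from 0.89, -0.10 for Pnpla2 and 0.04 for Dgat1.

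The promoters of the members with a matched window were read for the letters of 3 motifs on both strands. RefSeq windows from 250 bases before to 50 bases after the start site (GRCm38.p6) were matched for 6 of the 10 members, in 7 windows, namely Plin2, Plin3, Pnpla2, Abhd5, Hilpda with 2 start sites, and Acsl3. No window was matched for Dgat1, which rose in both pools, or for Dgat2, Scd1 and Scd2. The motifs were ACGTG (or CACGT), the core of hypoxia response elements, AGGTCA (or TGACCT), the letters of 1 arm of a nuclear receptor element, and CCAAT (or ATTGG), which do not share letters with each other. The windows of Plin2 and of the downstream start of Hilpda, both higher in METTL7A1 cells in either pool, and of Acsl3, higher in polysomal RNA, are shown 5′ to 3′ on the strand of the gene, with the motifs in capitals.
Plin2 (chr4:86670010-86670309, minus strand): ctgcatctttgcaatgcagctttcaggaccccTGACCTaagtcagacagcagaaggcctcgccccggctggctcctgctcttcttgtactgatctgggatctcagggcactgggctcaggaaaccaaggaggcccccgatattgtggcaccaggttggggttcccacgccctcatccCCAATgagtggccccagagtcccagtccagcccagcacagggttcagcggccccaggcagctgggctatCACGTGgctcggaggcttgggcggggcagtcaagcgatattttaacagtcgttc
Hilpda (chr6:29272376-29272675, plus strand): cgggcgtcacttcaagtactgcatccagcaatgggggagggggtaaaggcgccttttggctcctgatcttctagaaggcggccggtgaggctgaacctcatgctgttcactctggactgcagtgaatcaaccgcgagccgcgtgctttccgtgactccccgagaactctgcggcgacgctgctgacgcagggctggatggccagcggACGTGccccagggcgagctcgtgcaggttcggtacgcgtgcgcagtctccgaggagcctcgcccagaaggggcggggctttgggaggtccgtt
Acsl3 (chr1:78657575-78657874, plus strand): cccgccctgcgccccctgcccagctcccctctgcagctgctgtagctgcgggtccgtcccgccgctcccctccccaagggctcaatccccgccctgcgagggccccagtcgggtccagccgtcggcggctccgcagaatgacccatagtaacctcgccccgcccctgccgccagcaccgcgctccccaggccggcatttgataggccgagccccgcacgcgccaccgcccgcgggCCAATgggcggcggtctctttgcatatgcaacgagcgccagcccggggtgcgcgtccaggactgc
Plin2 held all 3 motifs, with CACGTG, which reads ACGTG on either strand, beginning 4 bases before the start site, CCAAT 73 bases and TGACCT 218 bases before it. Hilpda held ACGTG 43 bases before its downstream start, and its upstream window held none of the 3. Acsl3 held CCAAT 15 bases before its start. Among the other members, Plin3 held ATTGG, Abhd5 held TGACCT and Pnpla2 held none. In all 32851 windows of 300 bases, 19.6% held ACGTG, 16.3% AGGTCA and 37.4% CCAAT. A match describes the letters of the window and not the use of a site.

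Other genes of the same pathways, from 9 lists that leave out the members, moved in both directions. The share of all tested genes that rose or fell, given above for each pool, is the background of these counts. In the list for the coat, assembly and anchoring of droplets, 5 of 12 tested genes rose and 3 fell in polysomal RNA, and 3 rose and 4 fell in sub-polysomal RNA. Fitm2, needed for the budding of droplets, rose by log2 1.02 (polysomal) and 1.13 (sub-polysomal), and Rdh10 by 1.08 and 0.82. Tmem159, which encodes a partner of seipin, had log2 changes of -2.12 and -2.17, and Bscl2, which encodes seipin, of -1.12 and -0.85, so that both fell in both pools (edgeR's quasi-likelihood test). In the synthesis of glycerolipids and sterol esters, 4 of 12 rose and 0 fell in polysomal RNA, and 5 rose and 1 fell in sub-polysomal RNA, with a median log2 change of 0.46 and 0.60. The acyltransferase mRNAs Agpat5 (1.08 and 0.98) and Agpat4 (1.11 and 0.84) rose in both pools. In lipolysis 0 of 4 tested genes changed in polysomal RNA by edgeR, with 0 at an unadjusted p below 0.05, and Lipe, chosen after its values were seen, rose in sub-polysomal RNA (0.63).

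Among 17 tested genes of fatty acid synthesis, elongation, desaturation and activation, 4 rose and 1 fell in polysomal RNA, and 4 rose and 2 fell in sub-polysomal RNA. The desaturase mRNAs Fads2 (log2 0.88 polysomal, 0.86 sub-polysomal) and Fads3 (0.76 and 0.66) rose in both pools, while Acsl6, another acyl-CoA synthetase, fell in both (-2.16 and -2.98). In the list of fatty acid uptake and binding, 2 of 6 rose and 1 fell in polysomal RNA, and 3 rose and 1 fell in sub-polysomal RNA, where Slc27a3 (1.58 and 1.41) and Slc27a1 (0.65 and 1.30), of the fatty acid transport family, rose in both. The gene that fell in both was Vldlr (-3.82 and -2.98), at a low mean of 1.57 CPM. Of 17 genes of mitochondrial fatty acid oxidation 2 rose and 2 fell in polysomal RNA, and 2 rose and 6 fell in sub-polysomal RNA. The dehydrogenase mRNAs Acadm (-0.62 and -0.92) and Hadh (-0.66 and -0.81) fell in both pools. Decr1 (1.37 and 2.31) and Cpt1c (0.94 and 1.52) rose in both, at low means of 3.97 and 4.00 CPM.

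The division between the pools was counted in the same 9 lists, and the background is the share of all tested genes, 23.3% higher and 23.7% lower in polysomal RNA of mock cells and 30.0% and 29.3% in METTL7A1 cells, with a median log2 ratio of 0.05 and 0.06 (edgeR, TMM factors over all libraries). Of the 17 genes of fatty acid synthesis to activation, 7 were higher and 0 lower in polysomal RNA of mock cells, and 11 were higher and 1 lower in METTL7A1 cells, with a median log2 ratio of 0.34 and 0.59. For the 12 genes of glycerolipid synthesis the counts were 3 higher and 3 lower, and 6 higher and 3 lower. For the 12 droplet genes they were 2 higher and 3 lower, and 6 higher and 2 lower. Of the 17 genes of fatty acid oxidation the mock counts were 6 and 1, and the METTL7A1 counts 8 and 3. The 11 transcription factors and sensors had 1 higher against 3 lower in mock and 1 against 6 in METTL7A1 cells, with a median log2 ratio of 0.05 and -0.48. Among the 6 genes of uptake and binding 0 were higher in either genotype by edgeR, also at an unadjusted p below 0.05, and 1 was lower in mock and 2 in METTL7A1 cells (median 0.02 and -0.26). The 10 hypoxia-responsive genes had 3 higher and 0 lower, and 4 higher and 2 lower. Of the 5 PPAR-responsive genes 2 were higher in mock and 3 in METTL7A1 cells, with 0 lower by edgeR, also at an unadjusted p below 0.05. Of the 4 genes of lipolysis 1 was higher in each genotype and 1 was lower in METTL7A1 cells.

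The regulators were also mixed. Of 11 tested transcription factors of lipid genes and their sensors 2 rose and 2 fell in polysomal RNA, and 5 rose and 0 fell in sub-polysomal RNA. Srebf2, which encodes a factor of sterol synthesis, rose by log2 0.89 (polysomal) and 1.39 (sub-polysomal), and Insig1, whose product retains that factor, by 0.83 and 0.46. Of 10 hypoxia-responsive genes other than Hilpda, 3 rose and 3 fell in polysomal RNA, and 2 rose and 2 fell in sub-polysomal RNA. Slc2a1, the glucose transporter gene, rose (1.14 and 1.04), as did Ndrg1 (0.44 and 0.47), whereas Car9 (-1.00 and -1.27) and Egln3 (-0.50 and -0.69) fell. Of 5 tested PPAR-responsive genes other than Plin2, 0 changed in polysomal RNA by edgeR, with 1 at an unadjusted p below 0.05, and Angptl4, likewise chosen after its values were seen, rose in sub-polysomal RNA (1.41). Of the epithelial markers, 5 of 7 rose in polysomal RNA, and 1 rose and 2 fell in sub-polysomal RNA, with Krt8 higher in both pools (0.82 and 0.81). Cd68, a lysosomal gene used as a leukocyte marker, rose in both pools (1.56 and 0.80) while Pdgfra, the other tested marker of its list, did not pass. The part of these marker changes in the values of the members was not tested.

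**Figure D4:**
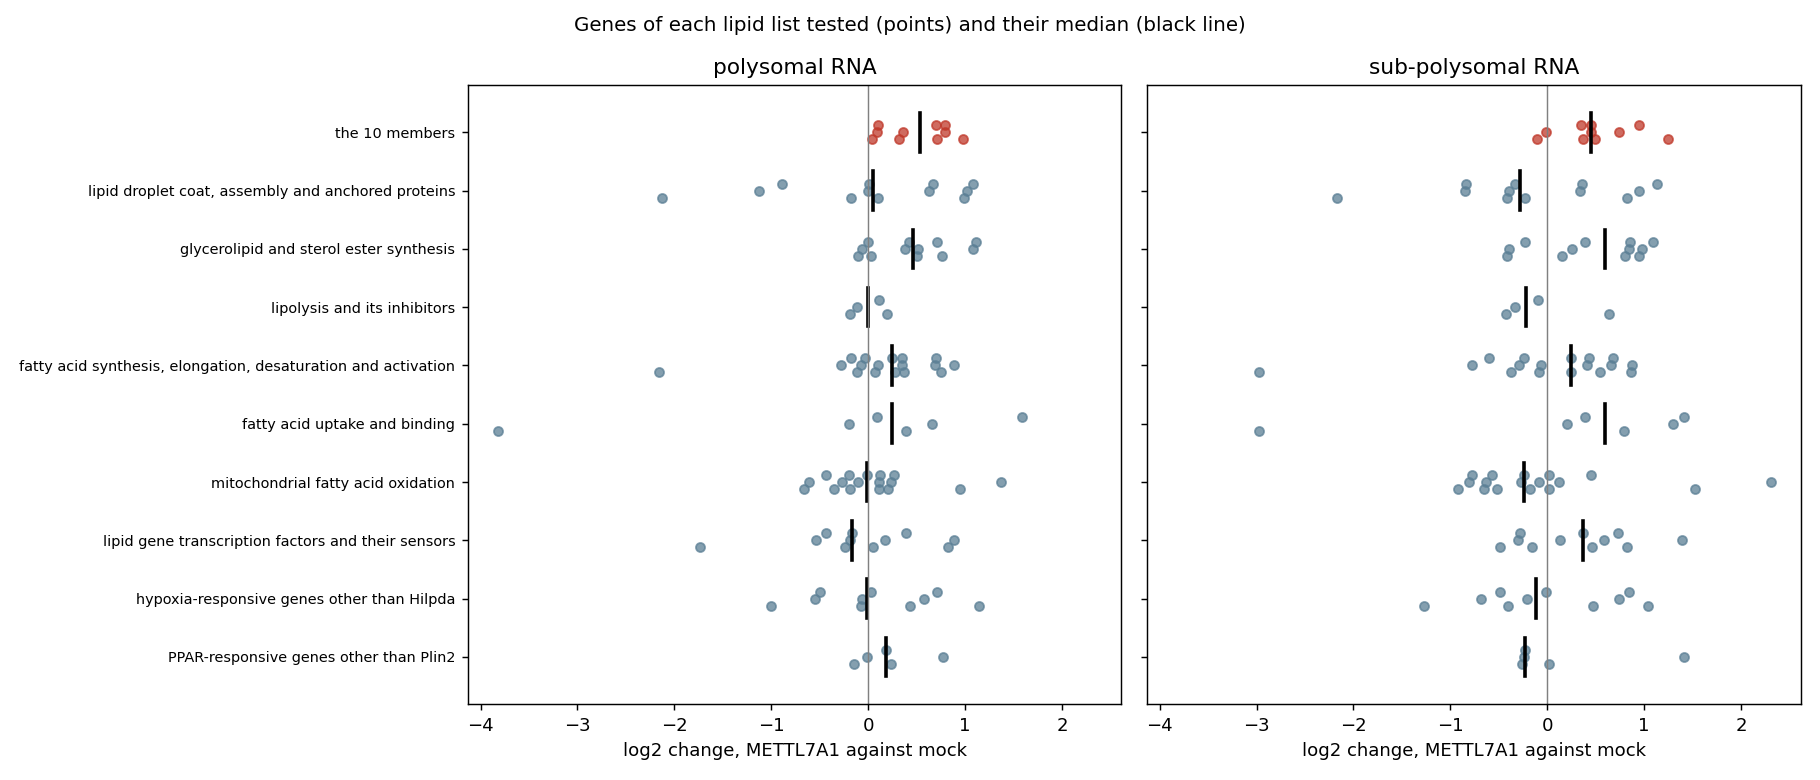
Log2 change between METTL7A1 and mock cells (horizontal axis) of each tested gene of the lipid lists (points, 1 row per list) in polysomal RNA (left) and sub-polysomal RNA (right), with a black line at the median of each list. The 10 members (red) all lie above 0 in polysomal RNA with a median of 0.53, while the other lists (blue) spread to both sides of 0.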

How the data were processed

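RNA-Seq libraries of both gradient pools from mock and METTL7A1 4T1 cells were analysed, with 12 libraries in 4 groups of 3. The values are whole-number counts per gene as deposited, which the authors made by trimming reads with BBDuk v38.49, aligning to mm10 with STAR v2.5.3a and assigning reads with featureCounts to the Ensembl GRCm38.97 annotation, without normalization. These steps are stated for the total RNA libraries of the study, and STAR and featureCounts are also named in the submitters' processing notes. The strand setting and the handling of reads matching several genes are not given in the sources used here.

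The filter of at least 1 CPM in 3 or more libraries left 12224 of 55376 genes. Counts were scaled with TMM factors, fitted with edgeR 4.0.16 in R 4.3.3 as 4 group means in 1 model, and contrasts were tested with the quasi-likelihood test, with Benjamini-Hochberg adjustment over all genes tested. A member passed at an adjusted p below 0.05. Standard errors were the log2 change over the square root of F, and confidence intervals were 95% intervals from the t distribution with the fitted degrees of freedom. CPM values used TMM factors, and CPM per kb the exon length in the count file. Single ratios divided libraries of the same letter with a prior count of 2. Intervals and limits cover fitted spread or counting error only. The members, lists, motifs and tests were chosen with earlier results of these data known. Named genes were the members, Mettl7a1 and, from each list, up to 2 genes with the largest rise and up to 2 with the largest fall averaged over both pools, among those that passed in the same direction in both and had a mean of at least 5 CPM. Decr1, Cpt1c, Vldlr and Angptl4 were named although their means were below 5 CPM. Marker lists were epithelial, adipocyte, and leukocyte, endothelial and fibroblast genes.

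Alternatives were DESeq2 1.42.0, RLE factors, TMM factors within each pool, limma-voom (limma 3.58.1), no filter beyond 1 count, at least 10 counts in every library, only the groups compared, the replicate letter as a block, the study's limits (adjusted p below 0.01, log2 change beyond 1.5), leaving out each letter from both pools, and, added after the data were seen, GC offsets (lowess span 0.3). Positions and transcript sequence came from GENCODE vM21 (GRCm38) and promoter windows from RefSeq. Total RNA, proteomic and m6A data were not analysed here.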

Additional observations from a re-analysis of the deposited data

How the results depend on the processing

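All 10 members kept the direction of their polysomal genotype change in every alternative except Pnpla2, which was at -0.000776 with GC offsets. Of the refitted member values, 636 kept direction and side of the threshold, 46 lost the call, 13 gained it and 25 changed sign, and the causes were not tested. At the study's limits 0 members were called in each of the 4 comparisons that had calls. In mock cells the count between the pools, 4, was 7 with TMM factors within each pool (48.0% of all genes higher and 14.3% lower). It was 2 with no filter (13.4% and 12.6% of all genes) and 1 with only the groups compared (19.5% and 20.9%). Without single replicates it was 1 to 3 (1 without mock B or METTL7A1 E). In those refits 17.4% to 22.7% of all tested genes were higher and 19.4% to 23.1% lower. Without single replicates the count was 3 to 6 in the sub-polysomal genotype comparison (3 without mock C or METTL7A1 D). There 11.5% to 16.1% of all tested genes rose and 8.73% to 14.2% fell. Between the pools of METTL7A1 cells the count was 3 to 6 (3 without E). For that comparison 21.5% to 30.8% of all tested genes were higher and 23.3% to 30.9% lower. For the shift, DESeq2 called 1 member, Acsl3, and 1.17% of all tested genes as higher and 1.52% as lower. Values that changed sign with GC offsets were, in sub-polysomal RNA, 0.24 for Abhd5 and 0.16 for Acsl3, between the METTL7A1 pools 0.19 for Pnpla2, and for the shift 0.042 for Dgat1, 0.13 for Dgat2 and -0.14 for Abhd5. With no filter Abhd5 was at 0.0055 in sub-polysomal RNA. With TMM factors within each pool the polysomal to sub-polysomal values were 0.038 for Dgat2, 0.033 for Abhd5 and 0.37 for Scd1 in mock cells, and 0.24 for Pnpla2, 0.097 for Abhd5 and 0.29 for Scd1 in METTL7A1 cells, which follows the move of the median. Leaving out single replicates gave -0.090 to 0.10 for Abhd5 and -0.30 to 0.10 for Acsl3 in sub-polysomal RNA, -0.14 to 0.048 for the mock ratio of Scd1, and shifts of -0.41 to 0.023 for Plin3, -0.32 to 0.0054 for Dgat2, -0.064 to 0.16 for Abhd5, -0.41 to 0.034 for Hilpda and -0.20 to 0.00070 for Scd1.

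Deviations of the same letter from the group means correlated between the pools with r between -0.29 and 0.11. Such a correlation cannot show whether both pools of a letter came from the same gradient. With the replicate block 3 members passed in mock and 5 in METTL7A1 cells. Abhd5 no longer passed, at -0.38 (adjusted p = 0.0594) and -0.34 (adjusted p = 0.0704, edgeR's test). The background with this block was 21.9% of all tested genes on the polysomal and 22.2% on the sub-polysomal side for mock. For METTL7A1 it was 29.2% and 28.2%. The shift called 0 members and 0% of all tested genes, with Acsl3 at 0.86. Genotypes share no letter, so the block could not enter their comparison within a pool. The depth of mock replicate A (1817520 counts) limits the least abundant members, of which Dgat1 had 27 counts there.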
